A study of Mus musculus with 12 samples.

Results

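The genotype by estrogen interaction asks, gene by gene, whether estrogen acted differently in organoids that lack Esr1 and in organoids that have it. It was defined as the estrogen effect in knockout (KO) organoids minus the estrogen effect in wild-type (WT) organoids. All 12 of the 12 libraries of the series entered it, and 16465 of the 26264 genes in the count files had enough reads to be tested. Bulk RNA was measured in organoids of mouse endometrial epithelium, self-organising cultures of the cells that line the uterus. They form 4 groups of 3 libraries, namely Esr1 KO organoids with estrogen, Esr1 KO organoids without estrogen, wild-type organoids with estrogen and wild-type organoids without estrogen. Per the labels, all organoids were at passage 3 and the protocol covers uteri of mice at postnatal days 15, 30 and 60, but no age, animal, organoid line, deleted exon, hormone dose or treatment time is tied to a library. The submitters state in the labels that neither genotype responded to the hormone.

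Estrogen acts on the uterine epithelium mainly through estrogen receptor alpha, the product of Esr1. The hormone-bound receptor binds DNA at estrogen response elements and at sites held by other factors, and it induces genes such as the progesterone receptor, lactoferrin and complement C3 in the mouse uterus. A gene whose response needs the receptor would respond in WT and not in KO, which gives a nonzero interaction. In the uterus a large part of the epithelial response also passes through receptor in the stroma.

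Library totals were 102 to 109 (in 1e+06 counted reads) in treated KO, 75.7 to 83.3 in untreated KO, 89.8 to 104 in treated WT and 84.3 to 106 in untreated WT. Every treated KO library was thus deeper than every untreated KO library. Levels below are CPM, counts per 1e+06 counted reads after scaling by edgeR, and the numbers in a sentence follow the replicate numbers. Epcam and Cdh1, which mark epithelium, averaged 749 and 710 CPM in treated KO, 653 and 659 in untreated KO, 1160 and 727 in treated WT and 1070 and 740 in untreated WT. Hoxa10, a gene of uterine cells, lay at or below 0.0152 CPM in the mean of every group. Esr1 had 19.3, 20.3 and 19.5 CPM in treated KO, 16.5, 15.9 and 16.7 in untreated KO, 280, 330 and 344 in treated WT and 318, 352 and 253 in untreated WT. Reads from undeleted parts of the gene can still be counted in KO. The labels do not say whether replicates came from separate animals or cultures, so p-values measure only the spread between these libraries, which may be technical. In bulk RNA, fewer cells of a type and less RNA per cell cannot be told apart.

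No gene passed the interaction test. With edgeR's quasi-likelihood test, 0 of 16465 genes (0%) had an adjusted p under 0.05, and the smallest adjusted p was 0.871. An unadjusted p under 0.05 was reached by 726 genes (4.41%), of which 287 (1.74%) had a more positive estrogen effect in KO and 439 (2.67%) a more negative one. An interaction of at least 2-fold in size was estimated for 1465 genes (8.9%), of which 333 (2.02% of all tested) had an unadjusted p under 0.05. The estrogen effects that make up the interaction did not pass either. In KO, 0 of 16465 genes (0%) passed and 411 (2.5%) had an unadjusted p under 0.05, 248 (1.51%) higher and 163 (0.99%) lower with hormone, with a smallest adjusted p of 0.187. The unadjusted p in KO leaned to high values, with 861 genes under 0.1 and 2158 above 0.9. The model had no term for the replicate number, and the reason for this lean was not tested. The 0 calls in KO thus do not show that no gene responded there. In WT, 0 of 16465 genes (0%) passed and 883 (5.36%) had an unadjusted p under 0.05, 596 (3.62%) higher and 287 (1.74%) lower with hormone, with a smallest adjusted p of 0.322. DESeq2, the other count test run, called 22 genes in the interaction, 5 with a more positive effect in KO and 17 with a more negative one. Limma-voom with weights for each group called 0. The labels do not state that replicate numbers pair libraries. In these data KO libraries of one number deviated together from their group means and WT libraries did not, so the numbers were taken to pair KO libraries only. A replicate block in KO only called 0 genes. A block within both genotypes called 4, Vnn1, Penk, Ccnd2 and Anpep, all with a more negative effect in KO.

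**Figure D1:**
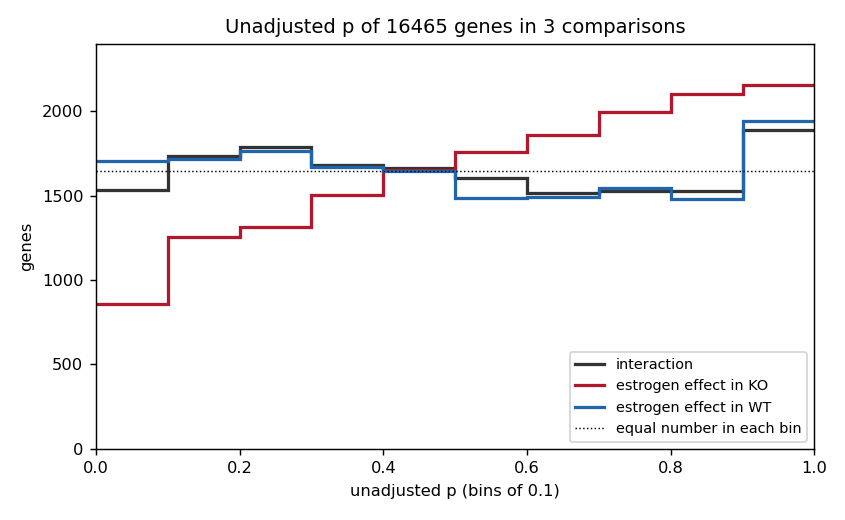
Number of genes (vertical axis) in each bin of 0.1 of the unadjusted p (horizontal axis) for the estrogen effect in KO, the estrogen effect in WT and the interaction, over 16465 genes each, with a dotted line at an equal number in every bin. The lowest bin of the interaction holds 1533 genes, below the dotted line. For the estrogen effect in KO the bins rise from 861 genes in the lowest to 2158 in the highest.

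Precision differed with the level of a gene. The 95% interval of the interaction lay within 2-fold in both directions for 10320 genes (62.7%). This share was 87.8% of the 2839 genes above 100 CPM, 84.2% of the 7680 genes at 10 to 100 CPM and 41.2% of the 3171 genes at 1 to 10 CPM, each by the highest group mean. It was 1.98% of the 2775 genes under 1 CPM, where the median standard error was 0.903 on the log2 scale, against 0.146 above 100 CPM. For nearly all genes under 1 CPM the interval thus reached past 2-fold.

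The estrogen effects of the genotypes were set side by side across genes. Among 13690 genes of at least 1 CPM in a group, the log2 effects of KO and WT, which share no library, correlated across genes with a Pearson's r of -0.0139 and a Spearman's rho of -0.0907, as a description, since genes are not independent replicates. Of 512 such genes with higher treated levels in WT at an unadjusted p under 0.05, with a median log2 effect of 0.65 there, 231 (45.1%) had the same sign in KO, where their median was -0.01. Over all 13690 genes the share of equal sign was 45.3%, close to the share among the genes picked as higher in WT. Of 209 genes picked as higher in KO, with a median of 0.36 there, 113 (54.1%) had the same sign in WT, where the median was 0.01. Among 229 genes picked as lower in WT (median -0.35), 94 (41%) had the same sign in KO, with a median of 0.02. The same sign in WT was found for 40 (34.5%) of 116 genes picked as lower in KO (median -0.41), with a median of 0.01.

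**Figure D2:**
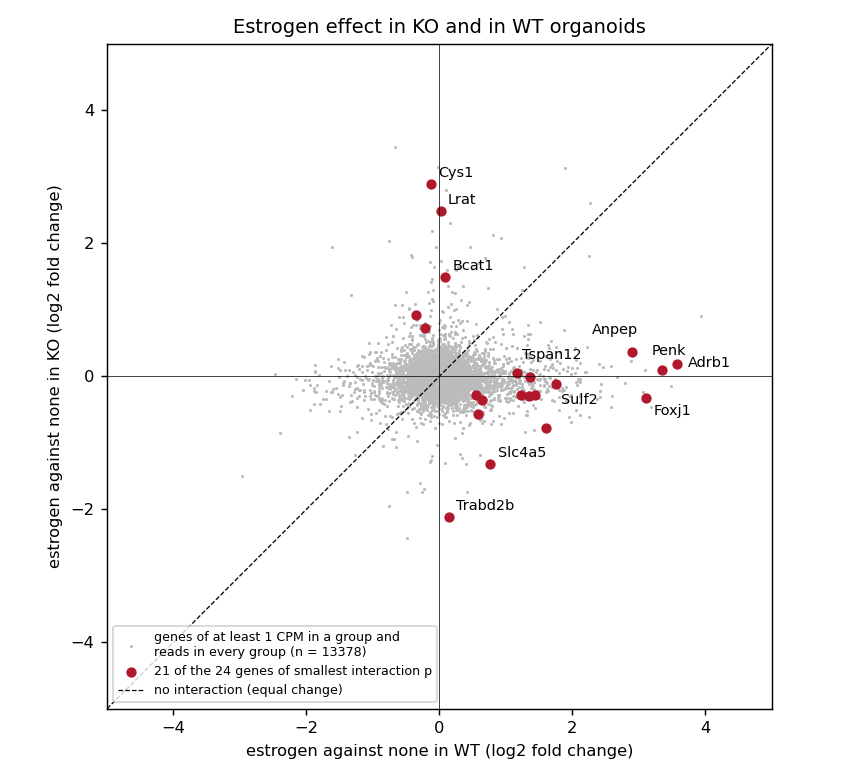
Log2 estrogen effect in KO (vertical axis) against that in WT (horizontal axis) for 13378 genes with at least 1 CPM in a group and reads in every group; the dashed line marks equal effects. Of the 24 genes of smallest interaction p, the 21 with reads in every group are red and lie away from the dashed line, some near an axis and others, such as Slc4a5 and Pcnx2, with effects of opposite sign in both genotypes, and 3 with a group at 0 reads are left out.

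The 24 genes of smallest interaction p with at least 1 CPM in a group are described next; all had an adjusted p of 0.871 in edgeR, which called none of them and whose p picked them, while DESeq2 called 17 of the 24. In 7 of them, Bcat1, Lrat, Cys1, Sgms2, Atp7b, Trabd2b and Slc4a5, the effect was larger in KO, where each of these genes was lower than in WT. Here and below, effects are compared in size as log2 ratios. A change in CPM can be larger in the other genotype, as it was for Sgms2. Bcat1, the cytosolic aminotransferase of branched-chain amino acids, had 19.95, 18.8 and 16.1 CPM in treated KO and 4.54, 6.31 and 8.64 in untreated KO, against 1161, 1343 and 1436 in treated WT and 1265, 1335 and 1109 in untreated WT. The treated KO libraries all lay above the untreated ones, while the WT groups overlapped. Its estrogen effect was 1.49 on the log2 scale in KO, the smallest p of that comparison (adjusted p = 0.187), and 0.09 in WT, with an interaction of 1.40 ± 0.27 (SE). Lrat, which esterifies retinol for storage, had 0.69, 1.12 and 0.40 CPM in treated KO and 0.10, 0.09 and 0.20 in untreated KO, against 432, 315 and 442 in treated WT and 319, 508 and 345 in untreated WT. The interaction of Lrat was 2.46 ± 0.56 on the log2 scale, with a 95% interval of 1.22 to 3.70. The KO level was thus far below that of WT with and without hormone, at 0.185% of WT in treated and 0.0333% in untreated organoids.

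Cys1, which encodes the cilium protein cystin, rested on 41 reads over the 3 treated KO libraries and 4 reads over the untreated ones, against 72849 reads in treated WT and 78157 in untreated WT. Its interaction was 3.02 ± 0.61 on the log2 scale. Sgms2, a sphingomyelin synthase of the plasma membrane, had 260, 346 and 296 CPM in treated KO and 157, 170 and 218 in untreated KO, against 3165, 3404 and 2600 in treated WT and 3847, 3317 and 3535 in untreated WT. The KO groups did not overlap, the WT groups did, and the interaction was 0.95 ± 0.22. Atp7b, a copper-transporting ATPase, had 0.275, 0.487 and 0.408 CPM in treated KO and 0.240, 0.183 and 0.191 in untreated KO, against 19.7, 22.8 and 17.4 in treated WT and 29.6, 25.1 and 21.8 in untreated WT. Its KO groups were apart, its WT groups overlapped, and the interaction was 1.28 ± 0.31. Trabd2b, a membrane protease of the TIKI family, went the other way, with 12 reads in treated KO and 42 in untreated KO and an interaction of -2.27 ± 0.53.

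Tmem266 and the ion channel gene Trpv4 belong to the 6 genes of smallest estrogen p in KO with Bcat1, Lrat, Cys1 and Dhrs9, and since that effect is part of the interaction their values are a description. Tmem266 had 1.66, 2.35 and 1.64 CPM in treated KO and 0.854, 1.01 and 1.26 in untreated KO, against 92.1, 87.4 and 96.4 in treated WT and 92.2, 100.5 and 82.5 in untreated WT, with an interaction of 0.85 ± 0.22. Every treated KO library of Trpv4 lay above every untreated one, at 24.3, 28.9 and 26.4 CPM in treated KO and 17.0, 15.9 and 18.3 in untreated KO, and its interaction was 0.37 (-0.03 to 0.77). The 6 genes of smallest estrogen p in WT, Tspan12, Anpep, Penk, Stxbp6, Adrb1 and Sulf2, are all among the 24.

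Slc4a5, a sodium bicarbonate cotransporter, had the smallest interaction p of the 24 (unadjusted p = 0.000188 by edgeR). It had 0.129, 0.153 and 0.133 CPM in treated KO and 0.337, 0.388 and 0.315 in untreated KO, against 1.18, 1.26 and 1.84 in treated WT and 0.892, 0.971 and 0.649 in untreated WT. The treated libraries lay below the untreated ones in KO and above them in WT, without overlap in either genotype. The estrogen effect was -1.32 on the log2 scale in KO and 0.77 in WT, with an interaction of -2.08 (95% interval -2.92 to -1.25). Slc4a5, Bcat1 and Lrat had the larger estimated effect in KO, though edgeR did not call it. They were set beside Greb1, a standard receptor target with an estimated interaction near 0. The windows around the annotated starts of these genes are shown so that they can be compared for receptor motifs. They are from RefSeq, build GRCm38.p6, run from 250 bases before to 50 after the start in the direction of the gene, and capitals mark the half-site GGTCA on either strand (TGACC on the other). Slc4a5 lies at chr6:83237125-83237424 on the plus strand, the downstream of the listed Bcat1 starts (the one with a half-site) at chr6:145048763-145049062 on the minus strand, Lrat at chr3:82903925-82904224 on the minus strand, and the downstream of the listed Greb1 starts (the one with more half-sites) at chr12:16757190-16757489 on the minus strand.
Slc4a5: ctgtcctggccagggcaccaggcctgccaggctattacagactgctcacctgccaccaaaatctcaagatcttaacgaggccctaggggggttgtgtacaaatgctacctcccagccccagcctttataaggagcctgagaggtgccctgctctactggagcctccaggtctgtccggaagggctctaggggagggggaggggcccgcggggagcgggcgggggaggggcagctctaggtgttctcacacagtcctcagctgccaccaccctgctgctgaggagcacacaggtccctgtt
Bcat1: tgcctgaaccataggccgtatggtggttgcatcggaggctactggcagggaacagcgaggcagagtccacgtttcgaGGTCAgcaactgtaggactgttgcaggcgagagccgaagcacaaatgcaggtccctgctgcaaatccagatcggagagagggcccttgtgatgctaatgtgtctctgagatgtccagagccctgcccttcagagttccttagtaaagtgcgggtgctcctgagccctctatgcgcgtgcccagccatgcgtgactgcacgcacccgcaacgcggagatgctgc
Lrat: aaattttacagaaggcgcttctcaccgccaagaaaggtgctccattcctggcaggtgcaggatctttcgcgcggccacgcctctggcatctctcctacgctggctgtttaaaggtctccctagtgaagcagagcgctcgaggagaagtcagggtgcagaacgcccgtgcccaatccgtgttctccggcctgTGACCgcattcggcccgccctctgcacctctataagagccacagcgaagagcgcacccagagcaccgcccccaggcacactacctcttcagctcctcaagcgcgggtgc
Greb1: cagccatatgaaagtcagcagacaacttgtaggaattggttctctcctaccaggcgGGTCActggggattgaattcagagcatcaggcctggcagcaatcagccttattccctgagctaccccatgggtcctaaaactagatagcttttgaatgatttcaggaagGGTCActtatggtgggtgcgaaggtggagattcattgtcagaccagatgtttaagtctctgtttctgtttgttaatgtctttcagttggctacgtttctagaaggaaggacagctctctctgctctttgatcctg
The half-site stands 0 times in the Slc4a5 window, 1 time in that of Bcat1, 1 time in that of Lrat and 2 times in that of Greb1. It stands 0 times in the upstream Bcat1 window and 1 time in the upstream Greb1 window, which are not printed. The full palindrome GGTCANNNTGACC stands in none of these, nor in any of the 29 windows that RefSeq lists for 20 of the 24 genes. Half-sites stand in 12 of those 29 windows (41.4%), against 13299 of all 32851 mouse windows (40.5%), and the full element in 23 of all windows (0.07%). The 24 genes thus held half-sites about as often as promoters in general, and a missing match says only that these letters are not in these windows.

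In the other 17 of the 24 genes the effect was larger in WT, and each was lower in untreated WT than in untreated KO. Tspan12, a tetraspanin that takes part in Frizzled-4 signalling, had 46.9, 42.1 and 47.1 CPM in treated KO and 44.3, 41.8 and 45.9 in untreated KO, against 2.80, 3.29 and 4.20 in treated WT and 1.48, 1.25 and 1.85 in untreated WT. The KO groups overlapped and the WT groups did not, and the estrogen effects were 0.04 in KO and 1.17 in WT on the log2 scale, with an interaction of -1.12 ± 0.22. Anpep, the membrane aminopeptidase N, had 429, 453 and 389 CPM in treated KO and 313, 337 and 341 in untreated KO, against 2.41, 3.03 and 7.14 in treated WT and 0.229, 0.536 and 0.904 in untreated WT. Its treated libraries were the higher ones in both genotypes, by a larger ratio in WT, and the interaction was -2.54 ± 0.58. Penk, which encodes proenkephalin, had 11.8, 6.46 and 5.43 CPM in treated KO and 9.22, 7.00 and 5.83 in untreated KO, against 3.43, 9.99 and 15.1 in treated WT and 0.433, 0.950 and 1.39 in untreated WT. With hormone, the WT level came to 121% of that in KO, and without it to 12.6%. The interaction of Penk was -3.25 ± 0.76.

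Sulf2, an extracellular enzyme that removes sulfate from heparan sulfate, had 45.1, 49.8 and 47.5 CPM in treated KO and 53.9, 55.3 and 45.5 in untreated KO, against 4.22, 8.67 and 12.7 in treated WT and 1.96, 2.56 and 3.04 in untreated WT, with an interaction of -1.87 ± 0.43. Stxbp6, a protein that binds the membrane fusion machinery, had 3.11, 4.90 and 6.81 CPM in treated WT and 1.91, 1.68 and 2.18 in untreated WT, while its KO groups overlapped near 45 CPM, and its interaction was -1.36 ± 0.32. In Penk, Sulf2, Anpep and Stxbp6 replicate 1 of treated WT was the lowest of its group, closest to the untreated WT libraries. Without that library edgeR called 6 genes in the interaction, all with a more negative effect in KO: Stxbp6 (adjusted p = 0.0407), Sulf2 (0.0214), Ltbp2 (0.00804), Ogdhl (0.0258), Tshz2 (0.00804) and Cdkn2a (0.0214). Leaving out any other single library called 0.

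Some of the 24 were close to the counting limit in WT. Adrb1, the beta-1 adrenergic receptor, had 28 reads over the 3 treated WT libraries and 2 over the untreated ones, a ratio of 13.7 with an exact 95% counting interval of 3.47 to 119, while its KO libraries lay between 2.65 and 3.99 CPM. Osr2, a zinc finger transcription factor, had 10 reads in treated WT and 0 in untreated WT, and was at least 3.27-fold higher. Bche, which encodes butyrylcholinesterase, had 30 reads in treated WT and 0 in untreated WT, and was at least 9.82-fold higher. Raver2, an RNA-binding protein gene that overlaps Jak1, had 0 reads in treated WT and 17 in untreated WT, and was at least 5.77-fold lower. These bounds and intervals cover counting error only, with a floor of 3 reads over a group. They treat reads as independent, but mates were counted on their own, so a fragment can be counted more than once. The interval is thus too narrow and the bounds are too large where that happened. In KO the treated and untreated libraries of all 4 genes overlapped, with group means of at least 2.12 CPM.

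Tnfrsf9, the receptor 4-1BB, had 1.98, 2.08 and 1.27 CPM in treated KO and 2.16, 2.46 and 1.86 in untreated KO, against 1.04, 1.60 and 1.67 in treated WT and 0.624, 0.607 and 0.603 in untreated WT, with an interaction of -1.51 ± 0.35. The KO groups of Tnfrsf9 overlapped and its WT groups did not. C1s1, a protease of the complement cascade, rested in WT on 50 reads with hormone and 18 without, and had an interaction of -1.72 ± 0.41.

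Only 5 of the 24 genes had treated libraries apart from untreated ones in both genotypes and in opposite directions, namely Slc4a5, Mvb12b, Ocm, Vim and Pcnx2. Over all tested genes, treated libraries lay apart in KO as the higher ones for 564 (3.43%) and the lower ones for 571 (3.47%), and in WT for 824 (5%) and 571 (3.47%). Both genotypes were apart in opposite directions for 60 genes (0.364%), 26 (0.158%) higher with hormone in KO and lower in WT and 34 (0.206%) the other way, and 49 genes (0.298%) were apart in the same direction. Mvb12b, a subunit of the endosomal sorting complex ESCRT-I, had 20.6, 17.9 and 19.8 CPM in treated KO and 25.3, 23.5 and 22.3 in untreated KO, against 6.52, 8.47 and 8.88 in treated WT and 4.98, 5.54 and 5.72 in untreated WT. Its interaction was -0.84 ± 0.17. Vim, which encodes the intermediate filament vimentin of mesenchymal cells, had 5.22, 5.46 and 5.76 CPM in treated KO and 5.90, 7.77 and 6.51 in untreated KO, against 0.247, 0.363 and 0.316 in treated WT and 0.166, 0.061 and 0.139 in untreated WT. Ocm, a calcium-binding parvalbumin, had an interaction of -2.39 ± 0.54, and Pcnx2 one of -1.15 ± 0.27. Sgms2, Stxbp6, Trabd2b, Bcat1, Tspan12, Cys1, Sulf2, Lrat, Mvb12b, Raver2 and Pcnx2 overlap another gene in a RefSeq table of build GRCm38, so that shared reads are lost from their counts and reads of the opposite strand can be among them.

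**Figure D3:**
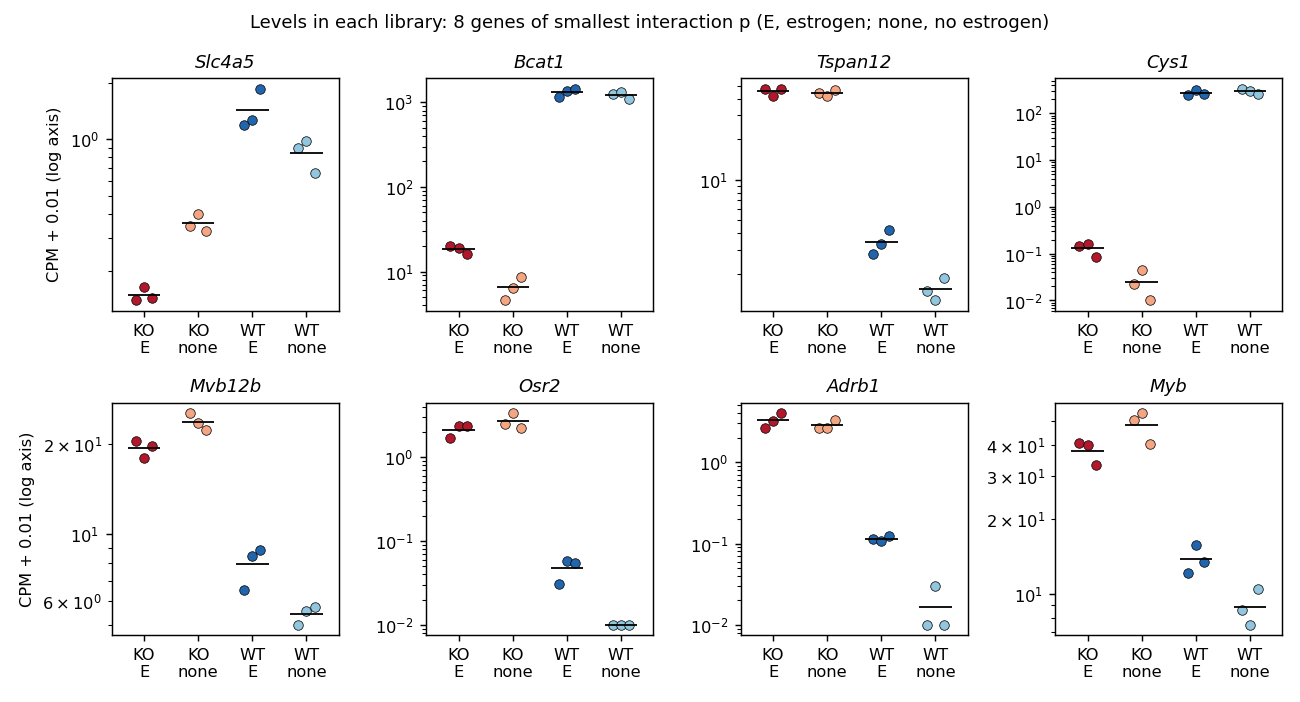
CPM + 0.01 in each library (points, log axis) with the mean of each group (line) for the 8 genes of smallest interaction p, in the order KO with estrogen, KO without, WT with estrogen, WT without. In Bcat1 and Cys1 the treated and untreated groups part in KO, in Tspan12, Osr2, Adrb1 and Myb in WT, and in Slc4a5 and Mvb12b in both genotypes in opposite directions.

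A shared feature of the 24 genes was seen after their values and is given without a test. In all 24 the log2 estrogen effect was larger in size in the genotype with the lower level, and in 21 it was positive there. Its median was 1.4 in that genotype and -0.15 in the other. Of the 346 genes with an unadjusted interaction p under 0.05 and genotypes at least 2-fold apart, 284 (82.1%) had the larger effect in the lower genotype and 308 (89%) a positive effect there. The same shares over all 4956 genes at least 2-fold apart were 61% and 57.7%. The p that picked the 24 and the 346 is computed from the same effects, so the picking partly sets their shares. Log2 effects are also less precise at low counts, with a median standard error of the interaction of 0.903 under 1 CPM and 0.146 above 100 CPM. In several of the 24 the lower genotype held few reads. Of 168 genes at least 16-fold lower in KO, with at least 10 CPM in WT, 132 (78.6%) had a positive estrogen effect in KO, with a median of 0.29, and without replicate 2 of treated KO 112 (66.7%) did, with a median of 0.14. Of 644 genes at least 16-fold lower in WT, 346 (53.7%) had a positive effect in WT, with a median of 0.10, which became 0.00047 without replicate 1 of treated WT and 0.32 without replicate 3 of untreated WT. Genes with 0 reads in both WT groups, such as Ccdc153, have a WT effect of 0. They stay among the 644 and count as not positive, so this share and these medians partly reflect genes without reads. Treated KO libraries were deeper than untreated ones, and with all libraries thinned to 75654191 reads 130 of the 168 genes (77.4%) were positive in KO, with a median of 0.28. As a share of its level in the other genotype, Foxj1 came to 0.0449% with hormone and 0.00364% without, and Anpep to 0.989% and 0.169%.

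Genes that report on estrogen signalling in the uterus showed no interaction that passed in edgeR. Among receptors, Esr1 had an interaction of 0.22 on the log2 scale (95% interval -0.13 to 0.57, adjusted p = 0.974). Pgr, the progesterone receptor, had 20.3, 35.3 and 29.6 CPM in treated KO and 17.8, 24.8 and 25.8 in untreated KO, against 150, 79.3 and 137 in treated WT and 48.3, 98.4 and 94.9 in untreated WT. The groups overlapped in both genotypes and the interaction was -0.28 (-1.27 to 0.70). Greb1, a chromatin-bound cofactor of the receptor, had 0.404, 0.505 and 0.304 CPM in treated KO and 0.168, 0.388 and 0.405 in untreated KO, against 156, 192 and 264 in treated WT and 155, 215 and 106 in untreated WT. Its interaction was -0.03 (-1.25 to 1.18), and the width of that interval allows a difference of over 2-fold either way.

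Secreted targets varied widely between replicates. Ltf, which encodes lactoferrin, ran from 1681 to 8061 CPM in treated WT and from 1174 to 4326 in untreated WT, with an interaction of -0.15 (-1.87 to 1.57). C3, the central complement protein, averaged 2626 ± 626 CPM in treated KO, 2306 ± 359 in untreated KO, 23217 ± 5814 in treated WT and 18633 ± 3737 in untreated WT (SD, n = 3), and its interaction of -0.13 had an interval of -0.88 to 0.62. Muc1, a membrane mucin, had a narrow interval around 0.18 (-0.10 to 0.46), and Cdkn1a, a brake on the cell cycle, around -0.12 (-0.50 to 0.25). The Wnt ligands Wnt7a and Wnt4 stood at 1.32 (-1.25 to 3.89) and 0.06 (-1.32 to 1.45), and Areg, a ligand of the EGF receptor, at 0.88 (-1.57 to 3.32). Ihh had too few reads for a test, with at most 0.101 CPM in any library. Among cell state markers, Mki67 of cycling cells stood at 0.10 (-0.86 to 1.06), Trp63 and Krt5 of basal cells at 0.15 (-1.02 to 1.31) and -1.14 (-3.17 to 0.88), and Lgr5 at 0.43 (-1.28 to 2.14). Krt5 averaged 4830 CPM in treated KO, 5010 in untreated KO, 0.141 in treated WT and 0.0631 in untreated WT, so its interaction rests on few WT reads. Trp63 averaged 104, 107, 2.26 and 2.6 CPM in the same order.

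**Figure D4:**
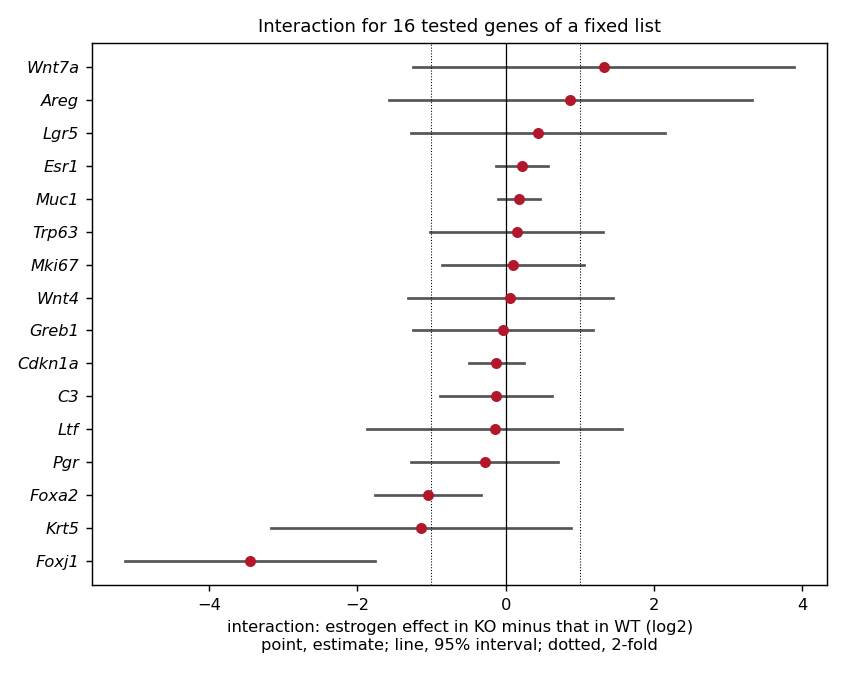
Interaction on the log2 scale (horizontal axis; point, estimate; line, 95% interval) for 16 genes chosen for their roles in estrogen signalling and epithelial identity, with dotted lines at 2-fold. The intervals of Esr1, Muc1, Cdkn1a and C3 lie within 2-fold, while those of Foxa2 and Foxj1 lie below 0; edgeR called none of the 16, and DESeq2 called Foxj1.

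Of 60 estrogen response genes listed for the uterine epithelium, 55 were tested, 0 were called by edgeR, and 6 (10.9%) had an unadjusted p under 0.05, against 4.41% of all genes. Their median interaction was 0.09 on the log2 scale, with medians of 0.10 in KO and -0.03 in WT, against -0.01 over all genes tested. The 4 with a more positive effect in KO were Rerg, Aqp8, Padi2 and Ctsl, and the 2 with a more negative one were Sprr2e and Wnt5a. Rerg, a small GTPase named for its induction by estrogen, had 8.29, 5.30 and 7.61 CPM in treated KO and 5.31, 4.67 and 6.44 in untreated KO, against 3.41, 2.23 and 1.53 in treated WT and 5.94, 4.72 and 4.08 in untreated WT. Its treated WT libraries lay below the untreated ones, and the interaction was 1.40 ± 0.40 (adjusted p = 0.974). The arginine deiminases Padi1, Padi2 and Padi4 had interactions of 0.57, 1.02 and 0.55 on the log2 scale, with KO effects of 0.85, 1.25 and 0.64 and WT effects of 0.28, 0.23 and 0.08. Padi2 averaged 7.02 ± 1.85 CPM in treated KO, 2.95 ± 1.40 in untreated KO, 1926 ± 321 in treated WT and 1641 ± 304 in untreated WT (SD, n = 3). Wnt5a, a noncanonical Wnt ligand, averaged 43.1 CPM in treated KO, 38.5 in untreated KO, 97.2 in treated WT and 58.3 in untreated WT, with an interaction of -0.58 (-1.14 to -0.01). The median of the whole list depended on single libraries, at -0.01 without replicate 3 of untreated WT and 0.27 without replicate 1 of treated WT.

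Among 33 tested steroid receptors and cofactors, edgeR called 0 and 1 (3.03%), Esrrg, had an unadjusted p under 0.05, resting on 4 reads in treated WT and 0 in untreated WT. The coactivators Ncoa1, Ncoa2 and Ncoa3 and the corepressor Ncor1 had interactions between -0.02 and 0.20, all with intervals within 2-fold. Nrip1, a corepressor that estrogen induces in many tissues, stood at 0.09 (-0.10 to 0.28). The glucocorticoid receptor gene Nr3c1 stood at 0.17 (-0.14 to 0.49). Esr2, the other nuclear estrogen receptor, had a mean of at most 0.115 CPM in any group. Of 15 tested progesterone response genes, edgeR called 0 and 1 (6.67%), Hdc, had an unadjusted p under 0.05.

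Multiciliated cells beat the fluid of the female tract. Of 42 tested markers of these cells, edgeR called 0. DESeq2, which called 22 genes in all, called 2 of them, Foxj1 (adjusted p = 0.0244) and Myb (adjusted p = 0.0371). By edgeR 5 (11.9%) had an unadjusted p under 0.05, all negative, and 32 had a negative interaction, with a median of -0.39 on the log2 scale. The median was -0.29 in KO and 0.03 in WT. Over all tested genes 4.41% had an unadjusted p under 0.05, 2.67% with a negative interaction. The interaction was negative for 8628 of all 16465 genes. In WT 6 members had 0 reads in both groups, so their interaction is their KO effect alone, and over the 9 members with at least 1 CPM in every group the median was -0.28, with 7 negative. Foxj1, the main regulator of motile cilia, had 280, 385 and 283 CPM in treated KO and 337, 496 and 359 in untreated KO, against 0.165, 0.194 and 0.068 in treated WT and 0, 0.020 and 0.023 in untreated WT. The WT values rest on 38 reads with hormone and 4 without, and the interaction was -3.45 ± 0.76. Myb, a transcription factor of multiciliated cell formation in mouse airways, had 40.5, 39.7 and 33.0 CPM in treated KO and 50.4, 53.5 and 40.4 in untreated KO, against 12.2, 15.8 and 13.5 in treated WT and 8.59, 7.50 and 10.5 in untreated WT. The KO groups overlapped by a narrow margin and the WT groups did not, with an interaction of -0.99 ± 0.21. The summed level of the list ran from 1780 to 2680 CPM in treated KO, from 2110 to 3340 in untreated KO, from 75.9 to 88.8 in treated WT and from 73.7 to 89.5 in untreated WT, so the unpaired ranges overlapped within each genotype. Within KO libraries of one replicate number, the sum was 1780 CPM with hormone against 2110 without in pair 1, 2680 against 3340 in pair 2 and 1980 against 2450 in pair 3. Of the 42 markers, 40 (95.2%) were lower with hormone in all 3 KO pairs and 0 were higher in all 3, while over all tested genes 3232 (19.6%) were lower and 2787 (16.9%) higher in all 3. The members share their libraries and are not independent, and the pairs were compared after the values were seen. Without replicate 2 of untreated KO the list's median was -0.24, and over all 12 omissions it ran from -0.57 to -0.24.

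Foxa2, the transcription factor of uterine gland formation, had 61.6, 60.6 and 56.6 CPM in treated KO and 64.1, 64.8 and 67.7 in untreated KO, against 3.31, 3.00 and 3.87 in treated WT and 0.968, 2.43 and 1.99 in untreated WT. Its groups did not overlap in either genotype and lay in opposite order, with an interaction of -1.04 (-1.76 to -0.33) and an adjusted p of 0.974 by edgeR. It was the member with an unadjusted p under 0.05 among 12 tested glandular markers (8.33%), whose median of -0.20 ran from -0.325 without replicate 2 of untreated WT to -0.0693 without replicate 1 of untreated WT. Sox9, another regulator of gland cells, stood at -0.40 (-0.93 to 0.13), and Gpx3 and Lif at -0.13 and -0.04. Among 19 tested luminal markers, 1 (5.26%) had an unadjusted p under 0.05, Hdc, which encodes the histamine-forming enzyme and averaged 176 CPM in treated KO, 200.1 in untreated KO, 0.959 in treated WT and 0.566 in untreated WT. Of 26 basal and 41 squamous differentiation genes, 0 had an unadjusted p under 0.05. The smallest p of these lists belonged to Igfbp2, with 6 reads in treated WT and 0 in untreated WT, and to Cnfn, a cornified envelope gene, at 1.84 (-0.81 to 4.49). The list medians were 0.15 and -0.01, and both ran to either side of 0 as single libraries were left out.

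Retinoic acid, made from retinol, is a signal that patterns the female tract. Of 20 tested genes of its pathway, edgeR called 0. DESeq2, which called 22 genes in all, called Lrat (adjusted p = 0.00848). By edgeR 3 (15%) had an unadjusted p under 0.05, all more positive in KO: Lrat, Dhrs9 and Aldh1a2. The share over all tested genes was 4.41%, with 1.74% more positive in KO. Dhrs9, a retinol dehydrogenase, had 12.5, 13.2 and 11.1 CPM in treated KO and 5.94, 3.84 and 5.15 in untreated KO, against 50.7, 36.6 and 58.7 in treated WT and 50.8, 70.8 and 35.2 in untreated WT. Its KO groups were apart and its WT groups overlapped, with an interaction of 1.40 ± 0.36 (adjusted p = 0.974). Aldh1a2, which makes retinoic acid from retinal, had 1.02, 1.33 and 0.684 CPM in treated KO and 0.793, 0.640 and 0.473 in untreated KO, against 1749, 2130 and 1479 in treated WT and 2355, 1906 and 2069 in untreated WT. Its interaction was 0.91 with an interval of 0.17 to 1.66. The receptors Rara, Rarg, Rxra and Rxrb stood at -0.16, 0.13, -0.06 and 0.03, all with intervals within 2-fold, and the median of the pathway was -0.09, which became 0.07 without replicate 2 of treated WT.

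Other signalling lists gave few genes. Of 38 tested Wnt ligands, targets and feedback genes, 2 (5.26%) had an unadjusted p under 0.05, Nkd2 and the Wnt5a already described, both negative, and the median of -0.165 became -0.0059 without replicate 1 of untreated KO. In the Notch, TGF-beta and BMP, and EGF and FGF lists 1 gene each had an unadjusted p under 0.05, Dtx4 (4.76% of 21), Ltbp2 (2.94% of 34) and Fgf1 (3.45% of 29), all negative. Ltbp2, a matrix protein that resembles the binding proteins of latent TGF-beta, had 190, 183 and 202 CPM in treated KO and 222, 223 and 241 in untreated KO, against 0.997, 2.74 and 2.84 in treated WT and 1.03, 0.728 and 1.09 in untreated WT. Of the treated WT libraries, replicate 1 lay within the untreated WT range and the others above it. Among 27 immediate early genes, 23 had a positive interaction, against 7837 of all 16465 genes. The median of this list was 0.26, but it was -0.04 without replicate 3 of untreated WT. Fosl2, an AP-1 subunit and the single member (3.7%) with an unadjusted p under 0.05, had 240, 264 and 287 CPM in treated KO and 240, 226 and 238 in untreated KO, against 464, 442 and 399 in treated WT and 530, 517 and 510 in untreated WT. Its interaction was 0.42 (0.17 to 0.67).

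Broad cell programs showed small medians. Of 45 tested cell cycle genes, 0 had an unadjusted p under 0.05, the phosphatase gene Cdc25b stood closest at 0.60 (-0.27 to 1.47), and the median of 0.04 became -0.01 with library size as the only scaling. It was -0.133 without replicate 3 of untreated WT and 0.278 without replicate 1 of treated WT, and kept its sign in 8 of 14 scalings and omissions. Over all tested genes 7837 of 16465 interactions were positive, with a median of -0.0127, and the median was 0.0609 for genes above 100 CPM. Hypoxia and glycolysis genes had positive interactions in 28 of 31, with a median of 0.19 that ran from 0.125 to 0.303 over the 12 omissions of a library. In all 3 KO pairs 22 of the 31 (71%) were higher with hormone and 0 were lower. Over all tested genes 2787 (16.9%) were higher and 3232 (19.6%) lower in all 3. Similar shares were higher among unfolded protein response genes (19 of 30, 63.3%, with 0 lower) and cholesterol synthesis genes (15 of 25, 60%, with 1 lower). These lists had the largest such shares. Among estrogen response genes 20 of 55 (36.4%) were higher and 1 (1.82%) lower. Such counts describe KO alone and not the interaction. Cholesterol synthesis genes had a median interaction of -0.0664, with 14 of 25 negative, and median effects of 0.115 in KO and 0.156 in WT. Members of a list share their libraries, and the pairs were compared after the values were seen. Vegfa, an angiogenic growth factor, was the single hypoxia and glycolysis gene (3.23%) with an unadjusted p under 0.05. It had 201, 242 and 338 CPM in treated KO, 185, 178 and 233 in untreated KO, 642, 652 and 402 in treated WT and 841, 593 and 778 in untreated WT. The groups of Vegfa overlapped in both genotypes and its interaction was 0.78 (0.05 to 1.50). Unfolded protein response genes were positive in 25 of 30, with a median of 0.12 and 27 intervals within 2-fold, and 1 of them (3.33%), Edem1, had an unadjusted p under 0.05. Respiratory chain and ribosomal protein genes had narrow intervals, with all 27 and all 34 intervals within 2-fold. Ndufb8, at -0.18 (-0.44 to 0.07), and Rplp2, at -0.13 (-0.44 to 0.17), had the smallest p of these lists. The list medians were -0.09 and -0.05, and that of the ribosomal genes turned to 0.07 without replicate 2 of treated KO. In the remaining lists 1 of 42 interferon-stimulated genes (2.38%, Mx2), 0 of 32 NF-kB and inflammatory genes, 1 of 25 cholesterol synthesis genes (4%, Mvd), 2 of 17 heat shock genes (11.8%, Hspa1a and Hspb8), 0 of 22 p53 targets and 2 of 22 mucins and secreted defence proteins (9.09%, Agr2 and Wfdc18) had an unadjusted p under 0.05. The share over all tested genes was 4.41%. In WT, Hspb8 rested on 38 reads with hormone and 8 without, and Wfdc18 on 32 with and 4 without. Icam1, an adhesion molecule, and Ddit4l, an inhibitor of mTOR signalling, had the smallest p of the inflammatory and p53 lists, at -0.67 (-1.41 to 0.07) and -0.56 (-1.15 to 0.04). Medians of 10 of the 30 lists kept their sign under all 14 scalings and omissions tried, among them ciliated, glandular, hypoxia and respiratory chain genes.

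**Figure D5:**
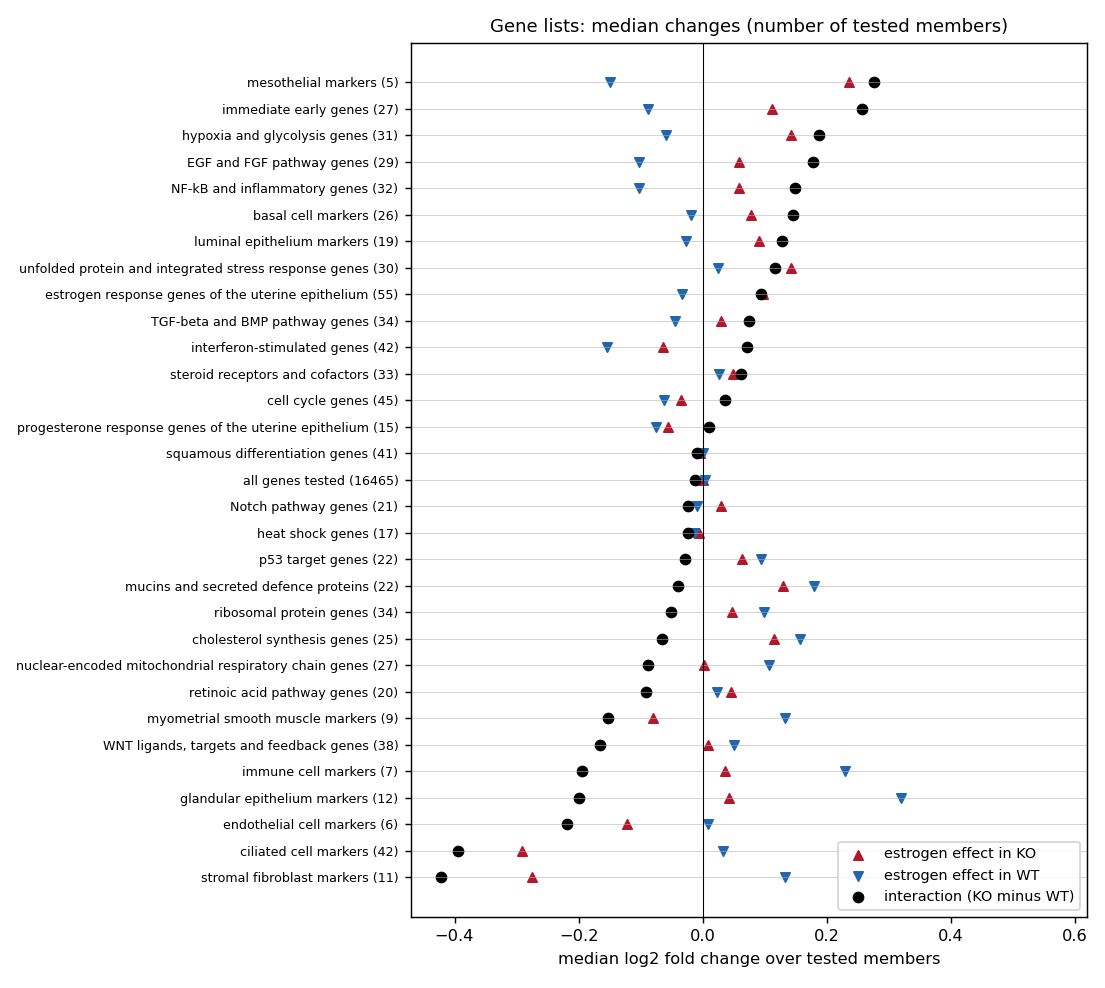
Median log2 value over the tested members of each list (number in parentheses) for the estrogen effect in KO, the estrogen effect in WT and the interaction, with all genes tested for scale. Medians of the interaction run from -0.42 in stromal fibroblast markers to 0.28 in mesothelial markers. Of the list members, edgeR called 0 and DESeq2 called 4, Foxj1, Myb, Lrat and Vim.

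Markers of cells outside the epithelium were measured in the same libraries. Among 11 stromal, 9 myometrial, 7 immune, 6 endothelial and 5 mesothelial markers tested, 2 had an unadjusted p under 0.05, Vim (9.09% of the stromal list) and Aldh1a2 (20% of the mesothelial list). The summed stromal level ran from 745 to 1090 CPM in treated KO, from 833 to 1120 in untreated KO, from 122 to 584 in treated WT and from 226 to 786 in untreated WT. Postn and Fn1 carried most of it, while Dcn averaged at most 0.435 CPM in any group, and Lum had 0 reads in both KO groups. Ptprc, which marks leukocytes, averaged 0.012 CPM in treated KO, 0 in untreated KO, 5.46 in treated WT and 6.41 in untreated WT, and Cd8a and Ncr1 had 0 reads in every library. Other members of the immune list were higher. Cd14 averaged 443 CPM in treated KO, 432 in untreated KO, 534 in treated WT and 455 in untreated WT. Cd68 averaged 147, 111, 332 and 282 CPM in the same order, and Csf1r 0.163, 0.309, 36.9 and 31.3. Acta2 of smooth muscle stood at -1.31 (-3.28 to 0.67) and Ramp2 of endothelium at -0.66 (-1.32 to 0.00434). The endothelial genes Emcn and Cldn5 had 0 reads in every library too. Flt1 of the same list averaged 8.7 CPM in treated KO, 9.28 in untreated KO, 12.4 in treated WT and 10.1 in untreated WT. The stromal median of -0.42 became 0.73 without replicate 3 of untreated KO and -1.22 without replicate 1 of treated WT, so its sign turned with 1 library, and the part of such cells in the interaction was not tested.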

How the data were processed

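Gene counts from 12 libraries were used as deposited. According to the headers of the deposited files, featureCounts 2.0.0 gave the counts, taken over exons by gene symbol, unstranded, each mate on its own, leaving out reads of several places or several genes; the submitters' processing notes name featureCounts 2.0.3, STAR 2.7.10b, Trim Galore 0.6.6, FastQC 0.11.7 and GRCm39. Counts of overlapping or near-identical genes are therefore uncertain.

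Genes were filtered with filterByExpr (minimum count 10, minimum total 15), scaled by TMM and fitted in 4 groups with edgeR 4.0.16 (quasi-likelihood, robust, R 4.3.3). Tests were two-sided, with Benjamini-Hochberg adjustment over 16465 genes and a threshold of 0.05. Standard errors were computed from each fold change and F statistic. The code was tested on simulated data. DESeq2 1.42.0, limma 3.58.1 (voom), other scalings and filters, thinning, replicate blocks and the omission of each library were the alternatives.

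The text names the 24 genes of smallest interaction p with at least 1 CPM in a group, 17 genes chosen for their roles, the member of smallest p in each list, and the 6 genes of smallest estrogen p in each genotype; other list members are named where they had an unadjusted p under 0.05 or as examples chosen after their values were seen. Members and lists were chosen with earlier results of these data known.

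Deviations from group means correlated between KO libraries of one number by 0.568, 0.501 and 0.409, so the numbers were taken to pair KO libraries; in WT the values were -0.164, -0.157 and -0.39. The 5461 genes with 0 reads in every library were not tested. Where a group had 0 reads, 3 reads over its libraries served as the floor of a fold. Floors and counting intervals cover counting error only, as PCR copies and the mates of a fragment were not told apart. No annotation of GRCm39 was used here; promoter windows and gene overlaps are from RefSeq tables of GRCm38. Values of some list members are not reported here.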

Additional observations from a re-analysis of the deposited data

How the results depend on the processing

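In the interaction, 0 genes were called by edgeR under RLE scaling, library size alone, both other filters, thinned libraries and a replicate block shared by the genotypes, and 0 by limma-voom. DESeq2 called 22 (17 of them among the 24 genes of smallest edgeR p), the replicate block within genotype called 4, of which DESeq2 called 3, and the omission of single libraries gave 0 to 6, with 6 only without replicate 1 of treated WT. In KO, the estrogen effect had 20 calls by DESeq2, and 0 to 4 over the omissions, with 4 without replicate 3 of untreated KO. In WT, it had 63 by DESeq2, 7 with the replicate block within genotype, and 0 to 54 over the omissions, with 54 without replicate 1 of treated WT. A replicate block in KO only, added after seeing the data, changed no call of the 3 comparisons. The cause of these differences was not tested. WT libraries share only a number, so the calls of the block within genotype are not a paired result for WT.

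Of 1470 pairs of a named gene and a setting, 0 reversed a gene with an unadjusted p under 0.05 and 22 brought a new call. Among these, DESeq2 gave Bcat1, Lrat and Tspan12 an adjusted p of 0.00848. Scalings and omissions for list medians, and all settings for the genes low in 1 genotype, were added after seeing the data. Library size alone moved the median of all genes to -0.05 on the log2 scale, against -0.01. With 3 libraries a group, precision under 1 CPM was limited.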

Other observations

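Genes outside the 24 were called in the interaction by an alternative setting only, and are given as values chosen after they were seen. Cdkn2a, which encodes inhibitors of the cell cycle, had 33.4, 15.1 and 18.5 CPM in treated KO and 25.3, 21.9 and 24.7 in untreated KO, against 1.26, 8.65 and 8.73 in treated WT and 0.968, 0.758 and 0.973 in untreated WT. Its interaction was -2.89 on the log2 scale. Ccnd2, which encodes cyclin D2, a driver of the cell cycle, had 175, 82.8 and 144 CPM in treated KO and 167, 65.9 and 134 in untreated KO, against 1.86, 3.50 and 6.20 in treated WT and 0.484, 0.789 and 1.47 in untreated WT. Its interaction was -1.94, and the KO libraries of one number lay close together.

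Ogdhl, which resembles a subunit of the oxoglutarate dehydrogenase complex, had 4.08, 4.34 and 3.48 CPM in treated KO and 4.11, 4.23 and 4.12 in untreated KO, against 10.6, 30.2 and 31.2 in treated WT and 11.2, 10.4 and 7.88 in untreated WT. Tshz2, a zinc finger gene, had 43.2, 37.5 and 38.9 CPM in treated KO and 45.9, 46.9 and 48.2 in untreated KO, against 5.74, 12.9 and 15.7 in treated WT and 5.33, 5.85 and 4.52 in untreated WT. Replicate 1 of treated WT lay within the range of the untreated WT libraries in both genes, and the other treated WT libraries lay above it.

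Vnn1, a pantetheinase, had 112, 96.4 and 128 CPM in treated KO and 113, 111 and 143 in untreated KO, against 0.267, 0.387 and 0.586 in treated WT and 0.0765, 0.142 and 0.209 in untreated WT, with an interaction of -1.63. Tshr, the receptor of thyroid-stimulating hormone, had 0.310, 0.379 and 0.161 CPM in treated KO and 0.0240, 0.0229 and 0.0451 in untreated KO, against 46.5, 68.5 and 80.2 in treated WT and 74.0, 94.7 and 29.0 in untreated WT, with an interaction of 3.17. The KO groups of Tshr and the WT groups of Vnn1 were apart, and the other genotype overlapped in both genes.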
